A study of Mus musculus with 2 samples.

Results

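The 9 genes described here encode transcription factors that mark lineages of the developing kidney: Pax2, Pax8, Lhx1, Emx2, Gata3, Sall1, Six2, Wt1 and Foxd1. They were chosen by symbol, and each matched 1 of the 54713 rows of the deposited gene table. RNA was sequenced from SV40 MES13, a mouse kidney line that the submitters label mesangial and that carries SV40 sequences. The control library came from cells infected with a control lentivirus (Lv_NC, genotype labelled WT), and the other library came from cells infected with a lentivirus that carries the long noncoding RNA AI662270 (Lv_AI662270, labelled as overexpression). Both sublines were selected in puromycin at 0.5 mg/ml, kept at 0.25 mg/ml in medium with 10% serum and labelled untreated. With 1 stable subline and 1 library per group, none of the differences could be checked against replicates, and each describes these 2 libraries. Whether a subline is a pool of infected cells or a clone is not given in the sources used here.

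The mammalian kidney forms from the nephric duct, whose ureteric bud becomes the collecting system, and from the metanephric mesenchyme, which holds nephron progenitors and stromal progenitors. PAX2, PAX8 and LHX1 establish the duct, EMX2 and GATA3 act in the duct and ureteric bud, and PAX2, PAX8 and LHX1 act again when nephrons form. SIX2 and SALL1 maintain nephron progenitors, WT1 is needed in that mesenchyme and later in podocytes, and FOXD1 marks the stromal progenitors from which mesangial cells and pericytes descend. GATA3 is also found in mesangial cells.

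The promoters of 3 of these genes are shown because they represent the main patterns below: Pax8 was the most abundant factor, Emx2 shares its start region with an antisense gene, and Gata3 was the factor with the largest difference among those with at least 1 CPM on average (CPM, counts scaled to a common library size). Each line gives the 250 bases before a transcription start in RefSeq (GRCm38.p6), read 5′ to 3′ on the strand of the gene. Capitals mark GC boxes (GGGCGG on either strand). The Pax8 window is chr2:24475600-24475849 on the minus strand, the Emx2 window is chr19:59458440-59458689 on the plus strand and the Gata3 window is chr2:9878601-9878850 on the minus strand.
Pax8: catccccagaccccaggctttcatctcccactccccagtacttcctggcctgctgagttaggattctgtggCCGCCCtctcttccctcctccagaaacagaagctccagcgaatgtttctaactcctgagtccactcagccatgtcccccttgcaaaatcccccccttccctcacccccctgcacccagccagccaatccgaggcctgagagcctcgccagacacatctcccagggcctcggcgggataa
Emx2: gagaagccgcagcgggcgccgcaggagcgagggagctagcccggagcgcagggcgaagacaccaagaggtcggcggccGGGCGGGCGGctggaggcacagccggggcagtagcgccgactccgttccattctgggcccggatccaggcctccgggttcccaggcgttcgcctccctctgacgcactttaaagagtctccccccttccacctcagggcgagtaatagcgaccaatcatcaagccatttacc
Gata3: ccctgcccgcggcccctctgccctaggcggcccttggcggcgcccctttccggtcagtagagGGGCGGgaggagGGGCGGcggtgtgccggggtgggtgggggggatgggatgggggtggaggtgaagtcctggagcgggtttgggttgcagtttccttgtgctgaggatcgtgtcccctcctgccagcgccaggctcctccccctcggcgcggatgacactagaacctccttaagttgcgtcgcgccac

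The promoter table held 12 start windows for 8 of the 9 genes, with no entry for Wt1. Their observed to expected ratio of CpG dinucleotides ran from 0.314 in the Pax8 window to 1.02 in the Six2 window, with a median of 0.742, against a median of 0.374 over 32841 windows of all genes. The ratio was above that overall median in 11 of the 12 windows, and the Pax8 window was the exception. A GC box was found in 9 of the 12 windows and in 32.7% of all windows. The letters AGATAA, the core bound by GATA factors, were found on either strand in the Six2 window alone, and in 9.99% of all windows. The letters GCGTGGGCG or GCGGGGGCG (cores bound by EGR factors and WT1), TGANTCA (AP-1) and TATAAA (bound by TBP) were in none of the 12 windows on either strand, and in 3.06%, 6.75% and 12.4% of all windows. The printed Emx2 and Gata3 windows each hold a pair of GC boxes, which overlap in Emx2 and are separate in Gata3.

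The control library held 15727023 counts and the AI662270 library 15062482. The delivered AI662270 transcript had 241 counts in the AI662270 library and 0 in the control. A count of 0 was read as a floor of 3 counts, or 0.197 CPM in the control, and against that floor the AI662270 level was 78.4-fold higher. The exact interval for the ratio of the libraries begins at 63.3. Values below are given in the order control, AI662270. Ranges in brackets are exact 95% intervals and cover counting error only, since the reads carried no molecular identifiers. Levels of different genes are compared as CPM per kilobase of transcript, written CPM per kb. These are bulk libraries, so fewer cells that express a gene and less RNA per cell cannot be told apart.

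Of the 9 factors, 7 were measured, meaning that the 2 libraries averaged 1 CPM or more, and Wt1 and Six2 were not. The duct factors Pax8, Pax2 and Emx2, the progenitor factor Sall1 and the stromal factor Foxd1 each had more than 200 counts in both libraries. In the control library the order by CPM per kb was Pax8, Pax2, Sall1, Emx2, Foxd1, Gata3 and Lhx1, with Six2 and Wt1 at 0 counts. The intervals of Emx2 and Foxd1 overlapped there, and each other neighbouring pair with counts was apart. In the AI662270 library Emx2 stood above Sall1 and Lhx1 above Gata3, but the intervals overlapped within each of those pairs, between Gata3 and Wt1 and between Wt1 and Six2.

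**Figure D1:**
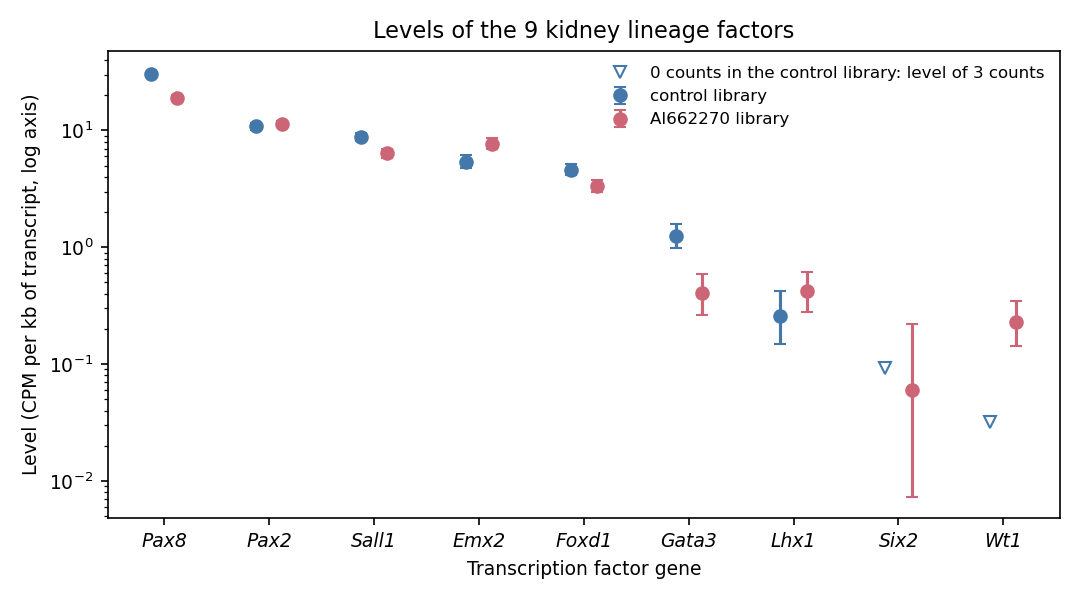
Level of each of the 9 factor genes in CPM per kb of transcript (log axis) in the control library (blue) and the AI662270 library (red). Bars are exact 95% counting intervals, and open triangles give the level that 3 counts would have where a library held 0 counts. Pax8 leads in both libraries, at 30.5 and 19.1 CPM per kb, and Wt1 and Six2 are lowest.

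Pax8 (ENSMUSG00000026976, chromosome 2 from 24420560 to 24475599 in build mm10, minus strand), a paired-box factor of the duct and early nephron, had 2812 and 1803 counts, or 185 and 116 CPM. Its level per kb exceeded that of 84.7% of measured genes in the control and 76.2% in the AI662270 library. Among 945 measured genes that the deposited table assigns to a transcription factor family, it ranked 76 and 103. The AI662270 level was 1.60-fold lower (1.51 to 1.70), a log2 ratio of -0.67 with 0.5 CPM added to each level. The intervals of the libraries were apart, and the difference was short of 2-fold.

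Pax2 (ENSMUSG00000004231, chromosome 19 from 44756045 to 44837871, plus strand), the closest relative of Pax8 among the 9, had 894 and 962 counts, or 58.8 and 61.7 CPM. Its ratio was 1.05 (0.958 to 1.15), so the libraries overlapped. The ratio of Pax8 to Pax2 needs no scaling between libraries, and per kb it was 2.81 (2.60 to 3.03) in the control and 1.67 (1.55 to 1.81) in the AI662270 library. That balance was 1.68-fold lower (1.503 to 1.87) in the AI662270 library.

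Emx2 (ENSMUSG00000043969, chromosome 19 from 59458372 to 59465357, plus strand), a homeobox factor needed for the ureteric bud, had 246 and 360 counts, or 16.2 and 23.1 CPM. It was 1.43-fold higher (1.21 to 1.69) in the AI662270 library, with intervals that were apart. Lhx1 (ENSMUSG00000018698, chromosome 11 from 84518284 to 84525535, minus strand), a LIM homeobox factor of the nephric duct and renal vesicle, had 16 and 27 counts, or 1.05 and 1.73 CPM. Its ratio of 1.65 had an interval of 0.856 to 3.27, so a difference was not detectable at this depth. Lhx1 lies on the same chromosome as AI662270, 1.29 Mb away.

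Gata3 (ENSMUSG00000015619, chromosome 2 from 9857078 to 9890034, minus strand), a zinc finger factor of the duct and of mesangial cells, had 76 and 25 counts, or 4.999 and 1.60 CPM. It was 3.12-fold lower (1.96 to 5.11) in the AI662270 library, a log2 ratio of -1.39, with intervals that were apart. Gata2, the related factor that is also active in the urogenital tract, had 313 and 365 counts. The ratio of Gata3 to Gata2 per kb was 0.329 (0.253 to 0.425) in the control and 0.0929 (0.0594 to 0.139) in the AI662270 library, and that balance was 3.54-fold lower (2.16 to 5.96).

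Sall1 (ENSMUSG00000031665, chromosome 8 from 89027235 to 89044162, minus strand), a zinc finger factor of nephron progenitors that is also found in the ureteric bud lineage less strongly, had 707 and 525 counts, or 46.5 and 33.7 CPM. It was 1.38-fold lower (1.23 to 1.55) in the AI662270 library. Its paralogue Sall2 had 565 and 747 counts, and the ratio of Sall1 to Sall2 per kb was 1.29 (1.15 to 1.44) and 0.725 (0.647 to 0.812). Sall1 was thus above Sall2 in the control library and below it in the other.

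Six2 (ENSMUSG00000024134, chromosome 17 from 85684277 to 85688274, minus strand), the factor that keeps nephron progenitors undifferentiated, had 0 and 2 counts. Both values are at or under the floor of 3 counts, so no ratio is given. Wt1 (ENSMUSG00000016458, chromosome 2 from 105126529 to 105173616, plus strand), the Wilms tumour suppressor, had 0 counts in the control library and 22 counts, or 1.41 CPM (0.885 to 2.14), in the AI662270 library. Against the floor of 3 counts, 0.197 CPM, it was 7.16-fold higher, and the exact interval for the ratio of the libraries begins at 5.35. The annotation holds 9 Wt1 transcripts, which the counts per gene do not separate.

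Foxd1 (ENSMUSG00000078302, chromosome 13 from 98354242 to 98359305, plus strand), the single-exon forkhead factor of renal stromal progenitors, had 356 and 264 counts, or 23.4 and 16.9 CPM. It was 1.38-fold lower (1.18 to 1.63), and the libraries' intervals were apart. Foxd1 stood below Pax2 in both libraries, at 0.425 (0.375 to 0.481) and 0.293 (0.255 to 0.336) of its level per kb.

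A gene counted as past the size rule when its log2 ratio was at least 1 in either direction, it was measured and the interval of its ratio did not hold 1. Of the 7 measured factors, 0 were higher and 1, Gata3, was lower in the AI662270 library. Among all 13268 measured genes 5.59% were higher and 5.72% lower, so a single factor past the rule is about what the background rate gives for a set of this size. The median log2 ratio was -0.46 over the 7 measured factors and -0.02 over all measured genes, with 3 of the 7 above 0 and 4 below. Gata3 did not pass with 2 CPM added, with a minimum mean of 5 CPM or at a 3-fold threshold. It also did not pass on the deposited FPKM values with 0.5 FPKM added, where its log2 ratio was -0.94. That addition shrinks the ratios of low genes, and every result on FPKM below uses it. Wt1 passed as higher when no minimum level was required, and Pax8 as lower at a 1.5-fold threshold. In the authors' deposited table, which compares the same 2 libraries, 4.34% of 20667 genes had an adjusted p-value under 0.05, and Wt1 was the 1 factor among the 9 that the authors listed. The authors' deposited table gives Wt1 a log2 fold change of 7.45 with an adjusted p-value of 0.000832, and Gata3 -1.63 with 0.0545, neither of which rests on replicates.

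**Figure D2:**
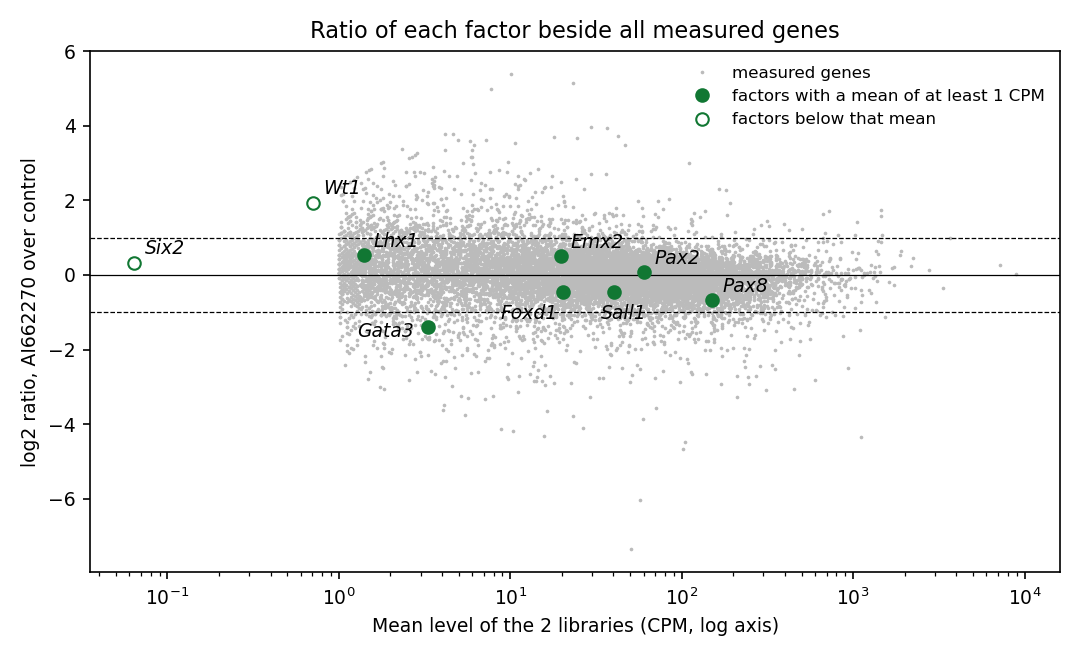
Log2 ratio of AI662270 over control (vertical axis, 0.5 CPM added) against the mean level in CPM (log axis) for 13268 measured genes (grey) and the 9 factors (green, open where the mean was under 1 CPM). Dashed lines mark 2-fold differences. Gata3 is the filled point below the lower line, and Wt1 lies above the upper line at a mean of 0.706 CPM.

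Several factors have relatives in the genome that can occupy the same lineages, and the make-up of the families was compared within each library. Within the PAX family, Pax8 and Pax2 took 72.2% and 25.7% of the level per kb in the control and 60.2% and 35.98% in the AI662270 library. Pax1, Pax4, Pax5 and Pax7 had 0 counts in both libraries. Pax3, a neural crest and muscle factor, had 20 and 51 counts, and Pax6, a factor of eye and pancreas, had 27 and 7. Both were past the size rule, in opposite directions, and neither passed with 2 CPM added, with a minimum mean of 5 CPM or on FPKM. Within the GATA family, Gata3 took 10.7% (8.56 to 13.3) of counts in the control and 4.39% (2.86 to 6.42) in the AI662270 library. Gata2 took 44.3% (40.6 to 48.02) and 64.1% (60.1 to 68.1), and Gata4, a factor of heart and gonad, 42.7% (39.04 to 46.5) and 26.2% (22.6 to 30.004). These shares of counts are not corrected for length. By level per kb Gata4 led in the control, at 49.2% against 36.9% for Gata2. In the AI662270 library Gata2 led, at 57.6% against 32.5%.

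Of the relatives of Six2, Six4 had 164 and 280 counts and Six5 had 116 and 104, while Six6 had 0 in both libraries. Emx2 held all counts of the EMX pair, with Emx1 at 0, and Foxd1 held 98.9% (97.2 to 99.7) and 94.6% (91.3 to 96.96) of FOXD counts. In the LHX family, by contrast, Lhx1 was a minor member, with 8.89% (5.17 to 14.03) and 10.4% (6.98 to 14.8) of counts, and Lhx2 led with 103 and 153 counts. Of 31 paralogues of the 9 factors 13 were measured, 2 were higher (Lhx6 and Pax3) and 2 lower (Pax6 and Gata4), with a median log2 ratio of 0.36. Over all measured genes the shares were 5.59% higher and 5.72% lower. Lhx6 had 10 and 43 counts and did not pass with 2 CPM added, at a minimum mean of 5 CPM or on FPKM. Gata4 had 302 and 149 counts, a 2.08-fold lower level (1.70 to 2.54). Gata4 lost its place when libraries were scaled by total counts, by DESeq2 size factors or by upper quartiles.

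**Figure D3:**
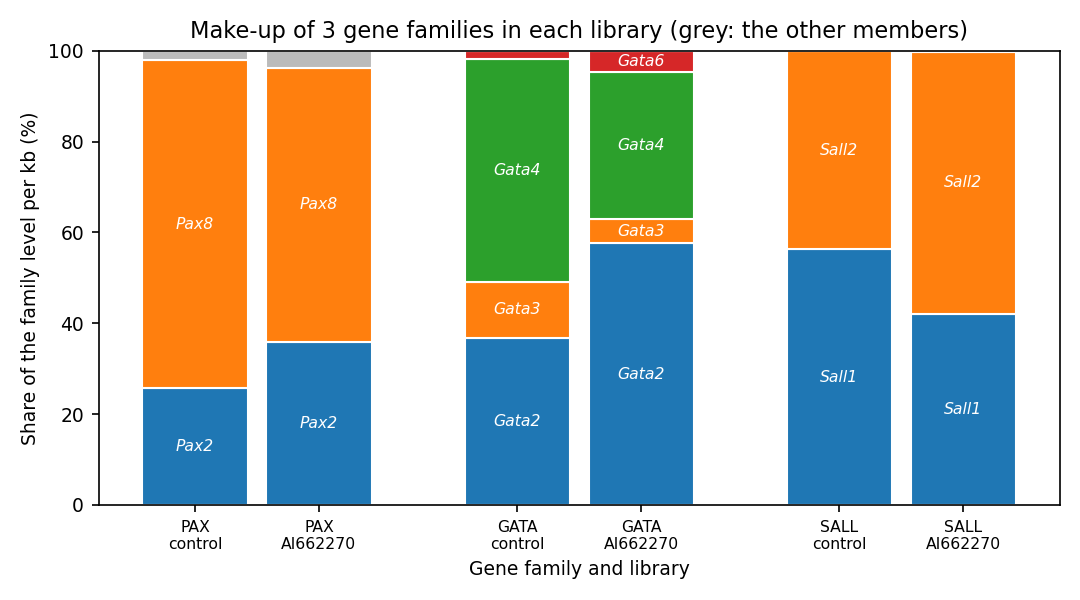
Share of each gene (vertical axis, percent) in the summed level per kb of its family, for the families of Pax2 and Pax8, Gata3 and Sall1 in the control and AI662270 libraries. Coloured parts are named genes and grey parts the remaining members. Pax8 is the largest part of the PAX bars at 72.2% and 60.2%, and Gata3 the smaller orange part of the GATA bars at 12.1% and 5.35%.

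The factors were then read beside lists of genes that mark kidney lineages and cell types, to see which lineage the line's RNA resembled. Several general epithelial genes and some genes of the nephric duct had high levels, while others of the duct and collecting duct lists were at or near 0. Cdh16, which encodes the kidney-specific cadherin of tubule and duct epithelium, had 4945 and 4409 counts, or 85.8 and 74.6 CPM per kb. The grainyhead factor gene Grhl2, which maintains epithelia, had 102 and 64 counts. The epithelial keratin genes Krt18 and Krt8 had 545 and 227 CPM per kb and 117 and 68.3 CPM per kb. Epcam, an epithelial adhesion gene, had 90.6 and 51.2 CPM per kb. The water channel gene Aqp2 of collecting duct principal cells and Foxi1 of intercalated cells had 0 counts in both libraries, as did Wnt9b, a ligand gene of the duct, and Elf5. Calb1 had 0 and 2 counts, and the sodium channel genes Scnn1b and Scnn1g had 1 and 0 and 0 and 1.

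Markers of the labelled cell type were mostly low. Of 18 mesangial and pericyte genes, 8 were measured, and Itga8, Ren1, Thy1, Ptn, Rgs5 and Igfbp5 had 0 counts in both libraries. Pdgfrb, the PDGF receptor gene of mesangial cells and pericytes, had 185 and 338 counts, Des had 26 and 58, and Acta2 had 12 and 171. The summed level of the list was 51.2 and 46.3 CPM per kb, of which Fhl2, a LIM-domain gene with wide expression, gave 37.2 and 18.2. The summed level of the nephric duct list was 222 and 164 CPM per kb, and that of the loop, distal tubule and collecting duct list 855 and 409, of which Krt18 alone gave 545 and 227. The podocyte list summed to 233 and 176 CPM per kb, above the duct list, and its most abundant gene was Actn4, an actin crosslinker gene with wide expression, at 88.7 and 84.1. Of the 8 measured mesangial and pericyte genes 3 were higher and 2 lower, with a median log2 ratio of 0.87. Over all measured genes the shares were 5.59% higher and 5.72% lower. The higher genes were Acta2, the smooth muscle actin gene, 13.9-fold (7.76 to 27.4), Notch3, a Notch receptor gene of mural cells, 4.06-fold (3.33 to 4.99), and Cd248, with 29 and 80 counts, which did not pass with 2 CPM added or at a minimum mean of 5 CPM. The lower genes were Fhl2 and Serpine2, and neither passed under scaling by total counts or upper quartiles. In these libraries, then, the label mesangial goes with high levels of epithelial genes and with several mesangial genes at 0. The part that these markers play in the differences between libraries was not tested.

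The duct list had 14 of 18 genes measured, 1 higher and 3 lower, with a median log2 ratio of -0.20. The shares over all measured genes, 5.59% higher and 5.72% lower, are the background for this list and for each list below. In lists this small, a count of 1 is near that background. The lower genes were Tfap2a, a factor of ectoderm and duct with 382 and 48 counts and an 8.16-fold lower level (6.03 to 11.3), Spry1, an inhibitor of RET signalling with 2598 and 922 counts, and Gfra1, the GDNF co-receptor gene with 96 and 28 counts. The higher gene was Sox8, with 22 and 69 counts. Gfra1 and Sox8 did not pass at a minimum mean of 5 CPM. Ret, the GDNF receptor gene, had 0 and 24 counts and a mean under 1 CPM, so it was outside the rule. Against the floor it was 7.81-fold higher, and the exact interval for the ratio of the libraries begins at 5.87. Gdnf, the ligand gene of the same axis, had 321 and 159 counts.

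Nephron progenitor genes were sparse beside the duct genes. Of 20 genes of the metanephric mesenchyme 6 were measured, 1 was lower (Gdnf) and 0 higher, with a median log2 ratio of 0.54. Gdnf was 2.07-fold lower (1.71 to 2.52) and lost its place under each of the 3 other scalings. Meox1, Itga8, Hoxd11, Fgf20 and Uncx had 0 counts in both libraries, and Cited1, a marker of uninduced progenitors, had 0 and 6. Osr1, the earliest factor of the intermediate mesoderm on this list, had 34 and 14 counts, and Eya1 had 64 and 116.

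Genes of the renal vesicle and early nephron went both ways. Of 18 genes 11 were measured, 3 were higher and 2 lower, with a median log2 ratio of -0.33. Irx1 and Irx2, Iroquois factors of the middle segment of the nephron, had 20 and 111 counts and 79 and 216 counts, and were 5.42-fold (3.34 to 9.21) and 2.67-fold higher (2.05 to 3.498). Irx3, their relative, had 48 and 20 counts and was lower, but lost its place under scaling by total counts or upper quartiles, with 2 CPM added, at a minimum of 5 CPM and on FPKM. Hey1, a Notch target, had 5 and 37 counts, and Dll1, a Notch ligand gene, had 121 and 51. Hey1 and Dll1 did not pass with 2 CPM added, nor Irx1 and Hey1 at a minimum mean of 5 CPM.

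The stromal list, the lineage of Foxd1, had 10 of 19 genes measured, 1 higher and 2 lower, with a median log2 ratio of 0.18. Fat4, the protocadherin gene that stromal cells use to signal to nephron progenitors, had 12 and 98 counts, a 7.97-fold higher level (4.36 to 15.9). It did not pass at a minimum mean of 5 CPM or on FPKM. Aldh1a2, the retinoic acid synthesis gene, had 184 and 57 counts, a 3.31-fold lower level (2.45 to 4.53), and Meis1 had 33 and 13 counts and sat on the threshold at a log2 ratio of -1.001, which it missed under each other scaling. Tcf21, Sfrp1 and Penk had 0 counts in both libraries. Foxd1 was therefore present without several other stromal genes.

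The podocyte list, the later site of Wt1, had 10 of 17 genes measured, 0 higher and 3 lower, with a median log2 ratio of -0.70. Among the lower genes, Podxl, the podocalyxin gene, had 1869 and 661 counts, a 2.90-fold lower level (2.65 to 3.17), and Clic5 had 935 and 253 counts, a 3.79-fold lower level (3.29 to 4.37). The defining slit diaphragm gene Nphs1 had 0 counts in both libraries, and Synpo, which encodes synaptopodin, had 394 and 614. Without a minimum level, 2 genes of this list passed as higher.

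Of 20 genes of the loop, distal tubule and collecting duct 9 were measured, 0 were higher and 3 lower, with a median log2 ratio of -0.77. The 3 were Krt18, 2.40-fold lower (2.32 to 2.48), the E-cadherin gene Cdh1, 2.16-fold lower (2.01 to 2.33), and Krt7, which did not pass under scaling by total counts or upper quartiles. Of 14 proximal tubule genes 6 were measured, 2 higher and 1 lower, with a median of 0.51. Maf, a large leucine zipper factor, had 5 and 124 counts, a 24.2-fold higher level (10.1 to 75.8), Havcr1, the kidney injury molecule gene, had 17 and 47 counts, and the water channel gene Aqp1 had 232 and 64 counts. Maf and Havcr1 did not pass at a minimum mean of 5 CPM. Hnf4a, the proximal tubule regulator, had 0 counts in both libraries.

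Genes of other cells were few. Of 12 endothelial genes 3 were measured and 0 passed the rule, with Tek, Tie1, Emcn, Ehd3, Erg and Sox17 at 0 counts in both libraries and a summed level of 4.78 and 4.801 CPM per kb. The most abundant endothelial genes by CPM were Flt1, with 396 and 372 counts, and Plvap, with 69 and 70. Of 10 leukocyte genes 2 were measured and 1 was lower, Csf1r, a cytokine receptor gene with 419 and 150 counts, while genes that include Adgre1, Itgam, Cd3e and Tyrobp were at 0 counts in both libraries. The summed level of the leukocyte list was 11.2 and 6.34 CPM per kb.

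**Figure D4:**
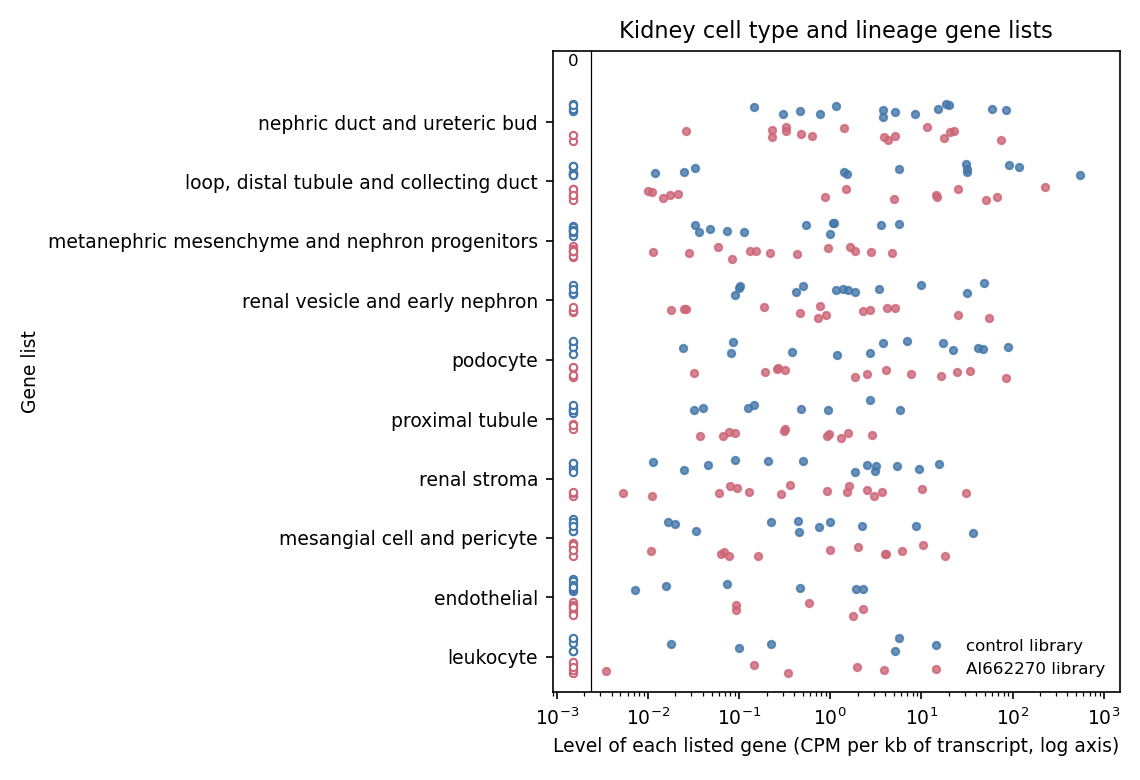
Level of each listed gene in CPM per kb (horizontal log axis, open points at the left for genes with 0 counts) for 10 lists of kidney lineages and cell types in the control (blue) and AI662270 (red) libraries. Points are shifted vertically at random for legibility. The highest points belong to Krt18 of the loop, distal tubule and collecting duct list, at 545 and 227 CPM per kb, and the endothelial list stays below 10 CPM per kb.

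HOX genes, which encode position along the body axis and in which group 11 is needed in the metanephric mesenchyme, gave a further reading of position. Of 39 HOX genes 27 were measured, 1 was higher and 0 lower, with a median log2 ratio of 0.29. Over all measured genes the shares were 5.59% higher and 5.72% lower. Hoxb9 led with 4218 and 3194 counts, or 108 and 79.6 CPM per kb, followed by Hoxb7 and Hoxb6, with 20.2 and 17.6 and with 14.4 and 20.2 CPM per kb. Paralogue group 10 had 647 and 782 counts over its 3 genes. Group 11 had 1 and 1 counts over Hoxa11, Hoxc11 and Hoxd11. Group 12 had 0 and 3 counts, and group 13 had 264 and 325, mostly from Hoxb13 and Hoxc13. The higher gene was Hoxa5, with 82 and 197 counts and a 2.34-fold higher level (1.80 to 3.07), and it did not pass with 2 CPM added.

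**Figure D5:**
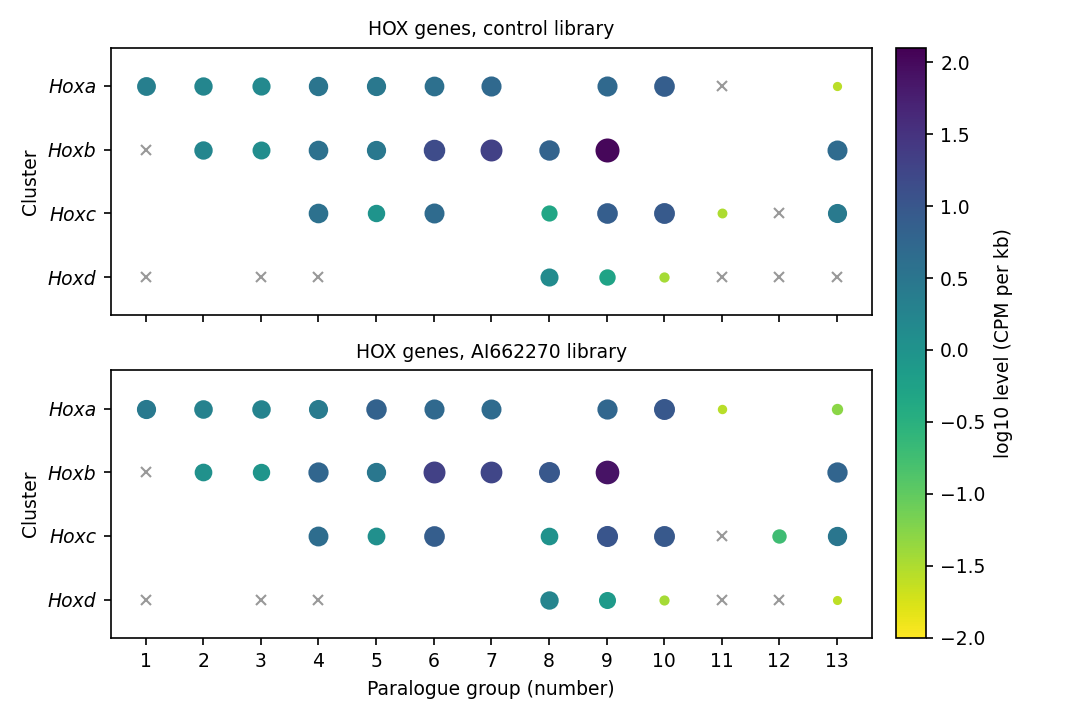
HOX genes by cluster (rows) and paralogue group (columns) in the control library (upper) and the AI662270 library (lower). Colour and area give the log10 level in CPM per kb, crosses mark genes with 0 counts, and empty positions have no gene. Hoxb9 is the darkest point in both libraries, and column 11 holds crosses or points of 1 count.

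Genes for proteins that work with the 9 factors mostly differed by less than 2-fold, though many had ratio intervals clear of 1, in both directions. Of 26 partner genes 23 were measured, 0 were higher and 1 lower, with a median log2 ratio of -0.04. Over all 13268 measured genes the shares were 5.59% higher and 5.72% lower. At a 1.5-fold threshold 1 partner gene was higher and 5 lower, beside 1705 higher and 1893 lower over all measured genes. The gene past the 2-fold rule was Eya2, a phosphatase and co-activator of SIX2 and related proteins. It had 189 and 49 counts, a 3.95-fold lower level (2.87 to 5.53). Ldb2, a cofactor of LIM homeobox proteins, had 0 counts in both libraries. Its relative Ldb1 had 1618 and 2249 counts, a ratio of 1.36 (1.27 to 1.45). Basp1, which encodes a corepressor of WT1, had 5882 and 3237 counts, a 1.86-fold lower level (1.78 to 1.94).

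Of 25 genes reported as targets of WT1, PAX2 or PAX8, 17 were measured, 1 was higher and 6 lower, with a median log2 ratio of -0.58, beside 5.59% higher, 5.72% lower and a median of -0.02 over all measured genes. Among the lower genes, Areg, an EGF receptor ligand gene, had 485 and 60 counts and an 8.28-fold lower level (6.33 to 11.02). Igf2 had 45 and 0 counts, and was 15.4-fold lower against the floor in the AI662270 library. That ratio leaves out the counting error of the 45 counts, so it is not a lower bound. The thyroglobulin gene Tg had 45 and 6 counts. The other lower genes were Podxl, Spry1 and Gdnf, as given above. Igf2 and Tg did not pass at a minimum mean of 5 CPM. The higher gene was Vdr, the vitamin D receptor gene, with 204 and 588 counts and a 2.81-fold higher level (2.39 to 3.31). Slc5a5, the iodide transporter gene controlled by PAX8 in the thyroid, had 81 and 50 counts. These targets come from several tissues, and each is also controlled by other factors. The list was chosen with earlier results of these data known, and some of its genes are also in other lists. Its counts therefore cannot be read as an excess over all measured genes, and control by WT1, PAX2 or PAX8 was not tested.

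Overlapping genes can share reads with a factor, since the strand setting is not given in the sources used here. Pax8 overlaps Gm13415, a noncoding gene on the opposite strand with 42 and 33 counts. Emx2 overlaps its antisense gene Emx2os by 264 bases at the start region printed above, and Emx2os had 25 counts in each library. Pax2 overlaps the antisense genes 1700039E22Rik, with 6 and 6 counts, and Gm20395, with 0 and 3. The 3 genes that overlap Gata3 had 0 counts in both libraries.

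Among the 18 nearest measured genes on either side of the 9 factors, 1 was higher and 3 lower, beside 5.59% and 5.72% of all measured genes. The higher gene was Rcn1, which encodes a calcium-binding protein of the endoplasmic reticulum and lies 213 kb from Wt1, with 259 and 832 counts and a 3.13-fold higher level (2.72 to 3.62). Ccdc73, the nearest measured gene on the other side of Wt1, had 31 and 19 counts and a ratio of 0.598 (0.319 to 1.09). The lower genes were Gm13217, 815 kb from Gata3, with 24 and 7 counts, and 2 unnamed loci that the authors had added to the annotation, with 256 and 55 and with 188 and 35 counts, 138 kb from Emx2 and 171 kb from Foxd1. Taf3, 24.5 kb from Gata3 on the other side, had 1251 and 798 counts, a 1.61-fold lower level (1.47 to 1.76), and Aatf, 4.76 kb from Lhx1, had 722 and 477 counts, a 1.55-fold lower level (1.38 to 1.75). The median log2 ratio of measured genes on the 6 chromosomes that carry the factors ran from -0.09 to 0.06. Such a median does not show a local shift. Over the 15 measured genes between AI662270 and Lhx1 the median was -0.38, with 0 higher and 2 lower. Whether position plays a part in the difference of any factor was not tested.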

How the data were processed

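RNA of 2 SV40 MES13 sublines was sequenced, 1 library per group. CASAVA 1.4, TopHat2 and mm10 appear in the submitters' processing notes. Read counter, annotation release, strand setting: not given in the sources used here. From their values, the deposited count columns are whole numbers of reads that the authors did not normalize. The deposited FPKM columns equal counts per gene length and per a divisor of 15391166 in both libraries, by the authors. The gene length (other unit, bases) equals the exon union in GENCODE M21 for all 9 factors. The deposited signal columns, counts rescaled by the authors, were left out. Log2 fold changes and p-values come from the authors' comparison of 1 library with 1 library, per the file headers.

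Counts were scaled by TMM (edgeR 4.0.16 in R 4.3.3). Log2 ratios used a pseudocount of 0.5 CPM in Python 3.11.15 (numpy 2.4.6, pandas 2.3.3, scipy 1.17.1), and understate the change of low genes. Ratio intervals are Clopper-Pearson, level intervals exact Poisson, both at 95%. No p-value was computed. Where a symbol had several rows, the one with most counts was used. Named genes were the 9 factors, their overlapping and nearest measured genes, and in each of 14 lists up to 4 genes past the size rule, or the 2 most abundant. Further genes were named for their role or their values after these were seen. The members and lists were chosen with earlier results of these data known. The size rule was tested on simulated data. Alternatives included DESeq2 1.42.0 size factors and the FPKM columns with 0.5 FPKM added. Some listed genes are not reported here by name.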

Additional observations from a re-analysis of the deposited data

How the results depend on the processing

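The number of factors past the size rule as higher was 1 (Wt1) without a filter on low counts, in place of 0. The number lower was 0 with a pseudocount of 2 CPM, at a minimum mean of 5 CPM, at a 3-fold threshold or on FPKM, and 2 (Pax8 and Gata3) at 1.5-fold, in place of 1. Among all measured genes, 742 were higher and 759 lower. The higher count was 400 with a pseudocount of 2 CPM, 391 at a minimum mean of 5 CPM and 486 on FPKM. At 1.5-fold 1705 were higher and 1893 lower, and at 3-fold 247 and 262. The median of the proximal tubule list was -0.86 at a minimum mean of 5 CPM. That of the loop, distal tubule and collecting duct list was -0.24 without a filter (-0.77 with it), and that of the podocyte list -0.40 on FPKM (-0.70 on counts). The median of the endothelial list turned positive under scaling by total counts (0.075), DESeq2 size factors (0.019) and upper quartiles (0.049), without a filter (0.076) and on FPKM (0.017). That of the partner list was 0.062 under total counts and 0.033 under upper quartiles. Where these medians turned, the cause was not tested. Of 38 listed genes past the rule, 15 stayed past it under all 8 alternatives other than the thresholds. Beside the losses given with each gene, Gfra1, Tg and Dll1 did not pass on FPKM, Sox8 with 2 CPM added, and Havcr1, Gata4, Gdnf, Fhl2, Serpine2 and Meis1 under either. Levels per kb could not change with the exon-union length of the annotation, because it equals the deposited length for all 9 factors. No paired analysis was possible because each group holds 1 library. Depth limited Lhx1, Six2 and Wt1, which had at most 27 counts in a library.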
